A study of Mus musculus with 6 samples.

Results

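The 10 α- and β-tubulin genes with the highest mean transcript counts in a pair of mouse mammary tumor cell populations are described here. These are the β-tubulins Tubb5, Tubb4b, Tubb6, Tubb2a, Tubb2b and Tubb3, and the α-tubulins Tuba1a, Tuba1b, Tuba1c and Tuba4a. They are 10 of the 24129 gene names in the deposited table. They were chosen by symbol, with their values in both populations already known, so that every comparison of their levels between the populations is a description and carries no test. The lowest of them by mean over the 6 samples is Tubb3, and the highest α- or β-tubulin left out is Tubb4a. RNA was sequenced from 3 replicates of T1 cells (labelled 4T1A) and 3 replicates of T2 cells (labelled 4T1NA). Both came from a BALB/c mammary tumor raised by injecting 4T1GFP cells, a mouse mammary carcinoma line carrying green fluorescent protein (GFP). T1 cells had low GFP, epithelial shape and firm attachment. T2 cells were round, attached only loosely and had high GFP, and the labels give them the lower proliferation rate. Both were kept in DMEM/F-12 with 10% FBS, but T2 cells were passaged without trypsin, in the manner of a suspension culture. Each population was recovered by sorting from a fibroblast culture that tumor cells had overgrown. The labels do not say whether replicates were separate cultures. P-values therefore measure the spread between these samples, which may be technical. The parental 4T1GFP cells were not analysed here.

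Microtubules are hollow polymers of αβ-tubulin dimers, and a mammalian cell draws both subunits from several genes whose products are called isotypes. Isotypes are nearly identical in the folded body and differ mostly in the acidic C-terminal tail, which projects from the microtubule surface and carries polyglutamylation, polyglycylation and, on α-tubulin, removal and re-addition of the last tyrosine. Free tubulin dimers trigger decay of tubulin mRNAs during translation, through a factor, Ttc5 (TTC5), that recognises the first residues of the nascent chain.

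The isotypes are introduced by the DNA that encodes their tails, where they differ most, for 6 of the 10. Each line gives the last 63 bases of the coding sequence (20 codons and the stop codon) in mm10 (GRCm38), read 5′ to 3′ on the coding strand from GENCODE transcripts, with glutamate codons (GAA or GAG) in capitals. The lines cover 5 of the β-tubulins and 1 α-tubulin, Tuba4a.
Tubb5, chr17:35834982-35835044 (minus strand): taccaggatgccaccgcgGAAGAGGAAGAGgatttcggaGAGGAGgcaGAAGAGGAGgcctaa
Tubb4b, chr2:25222308-25222370 (minus strand): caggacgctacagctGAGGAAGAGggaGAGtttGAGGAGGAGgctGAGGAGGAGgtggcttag
Tubb2a, chr13:34074468-34074530 (minus strand): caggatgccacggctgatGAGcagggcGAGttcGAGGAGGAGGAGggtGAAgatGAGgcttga
Tubb2b, chr13:34127471-34127533 (minus strand): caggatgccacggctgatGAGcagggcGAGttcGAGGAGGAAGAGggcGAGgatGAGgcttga
Tubb3, chr8:123421620-123421682 (plus strand): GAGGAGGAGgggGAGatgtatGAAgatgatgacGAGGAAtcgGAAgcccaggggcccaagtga
Tuba4a, chr1:75215622-75215684 (minus strand): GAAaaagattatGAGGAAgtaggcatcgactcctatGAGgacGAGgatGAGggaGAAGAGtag

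Glutamate codons numbered 10 of the 20 in Tubb4b, 9 in Tubb5, and 8 each in Tubb2a, Tubb2b, Tubb3 and Tuba4a. Tuba4a also carried 4 aspartate codons and Tubb4b 1. The tails of Tubb2a and Tubb2b had the same number of both codons, and their whole proteins differed at 2 residues (99.6% identity, from translated coding sequences). Tuba1a and Tuba1b also differed at 2 residues (99.6%), whereas Tuba1c was 98.2% identical to each of them. Tubb3 and Tubb6 stood further from the other β-tubulins, at 90.2 to 91.6% identity, and were 92% identical to each other. Before its stop codon Tuba4a ends in the glutamate codon GAG, so that its product lacks an encoded terminal tyrosine. At the other end, the 6 β-tubulins shared their first 4 residues and so did the 4 α-tubulins. The first 12 coding bases were, for example, ATGAGGGAAATC in Tubb5 and ATGCGCGAGTGC in Tuba4a.

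Near-identity of the genes limits what a read can be assigned to. Of all 100-base windows along the annotated exons, 27% were unique to Tuba1b, 34.2% to Tuba1a and 46.6% to Tuba1c, and Tuba1b shared 48.6% of its windows with Tuba1c alone or among others. Tubb2a was unique in 63.1% of windows and Tubb2b in 72.3%, with 35.9% of the Tubb2a windows also found in Tubb2b. Tubb4b was unique in 69.4% and shared 27.4% with the pseudogene Tubb4b-ps1. Tubb3, Tubb5 and Tubb6 were unique in 100%. Of Tuba4a windows, 53.3% were unique and 46.7% were shared with Stk16, a kinase gene that overlaps it on the opposite strand, and the kit does not mark strand. Stk16 itself had 1082 to 1221 normalized counts in T1 and 1172 to 1372 in T2 cells, with overlapping groups. How reads matching several genes were treated is not given in the sources used here. Values of Tuba1a, Tuba1b, Tuba1c, Tubb2a, Tubb2b, Tubb4b and Tuba4a are therefore less certain than those of the other 3.

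The genes lie on 7 chromosomes in mm10: Tubb5 at chr17:35833921-35838306, Tubb4b at chr2:25222160-25224702, Tubb6 at chr18:67390717-67402749, Tubb3 at chr8:123411424-123422015 and Tuba4a at chr1:75214228-75219865. Tubb2a (chr13:34074274-34078007) and Tubb2b (chr13:34126748-34130466) are neighbours 48.7 kb apart. Tuba1b (chr15:98931425-98934565) and Tuba1a (chr15:98949837-98953703) are 15.3 kb apart, and Tuba1c (chr15:99029891-99038110) follows 76.2 kb beyond Tuba1a. All 10 are annotated as protein-coding genes with 4 exon blocks.

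The libraries held 18133227 to 20839686 reads on genes, and replicates of 1 population differed by more than sampling noise (chi-square 8.26 to 26.1 per degree of freedom). The unit throughout is the normalized count, a gene's read count divided by the size factor of its sample. Expression was compared over 11514 genes that averaged 10 or more normalized counts, by limma on log2(normalized count + 1) with Benjamini-Hochberg adjustment. The log2 fold changes given are T1 minus T2 on that scale, where genes with few reads appear to change less than they do. Of the 8 epithelial markers checked, all had reads, and 4 of the 6 compared were higher in T1 past both thresholds used (adjusted p-value under 0.01 and absolute log2 fold change above 2). Their summed counts were 94042 to 113157 in T1 and 37618 to 43995 in T2 cells. Krt8 and Krt18 did not pass the adjusted threshold. Epcam, a surface protein used in the sorting scheme, had a mean of 3141 in T1 and 34.7 in T2 cells.

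Every gene of the set was measured above the minimum mean, so all 10 entered the comparison, although Tubb2b and Tubb3 reached it through their T1 values alone. Of them, 8 had all T1 values above all T2 values, a pattern seen in 34.2% of the genes compared, and 2 had all T1 values below, as in 33.9%. At an adjusted p-value under 0.01, limma placed 7 higher in T1 (25.1% of the genes compared) and 0 lower (24.4%). For the lower direction, 1 gene had an unadjusted p-value under 0.05, and edgeR placed 0 and DESeq2 1 below the adjusted threshold. With the fold threshold added, 2 were higher, Tubb2b and Tubb3 (4.17% of all genes), and 0 lower by limma, edgeR, DESeq2 or the unadjusted p-value (4.2%). Leaving out 1 replicate moved the 7 to between 5 and 7, with Tubb6 lost without T1 replicate 1 or 2 or any T2 replicate and Tuba1b without T1 replicate 1 or 2 or T2 replicate 1 or 2. Because the genes were chosen on this contrast, nothing is read from these counts. The median log2 fold change of the 10 was 0.63, against -0.0055 over all genes compared, with 0.62 for the α- and 0.72 for the β-tubulins. In such bulk samples, fewer cells expressing a gene and less of its RNA per cell cannot be told apart.

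**Figure D1:**
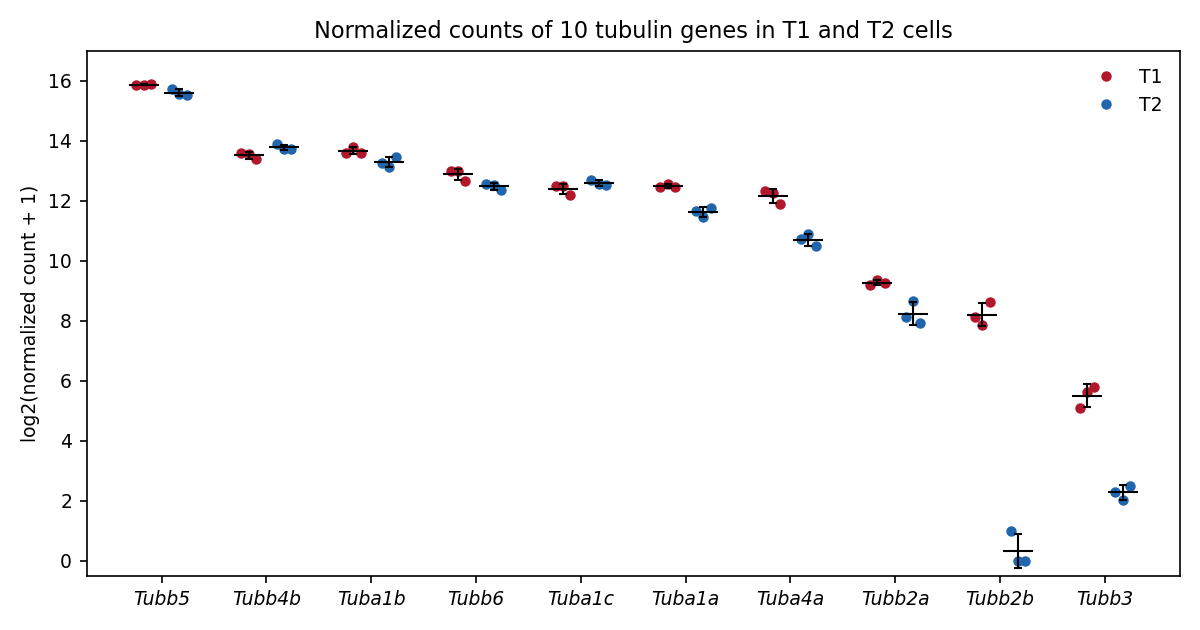
Normalized counts of the 10 tubulin genes, ordered by mean, as log2(normalized count + 1) on the y axis. Points are the 3 T1 (red) and 3 T2 (blue) samples, and black lines are the mean and SD of the group on that scale. Tubb4b and Tuba1c are the genes in which T2 points lie above T1 points, and Tubb2b and Tubb3 show the widest gaps.

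Tubb5, the class I β-tubulin of most dividing cells, was the most abundant isotype and ranked 13 among all genes by mean count. Its normalized counts were 59627, 59713 and 60727 in T1 and 53974, 48788 and 46908 in T2 cells. All T1 values lay above the T2 values, but by a small margin: the mean was 60022 ± 612 against 49890 ± 3660 (n = 3 each, ± SD), that is 1.20 times as high, with a log2 fold change of 0.27 (SE 0.08). The T1 samples differed little among themselves, with a coefficient of variation of 1.02% against 7.34% in T2.

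Tubb4b is a widely expressed β-tubulin that is also a main isotype of ciliary axonemes. It was one of the members that ran the other way. It had 12397, 12001 and 10719 normalized counts in T1 and 15072, 13555 and 13505 in T2 cells. The groups did not overlap, and the mean was 11706 ± 877 against 14044 ± 890 (SD, n = 3 each), with a log2 fold change of -0.26 (SE 0.08).

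Tubb6, the divergent class V β-tubulin, had 8189, 8109 and 6531 normalized counts in T1 and 6019, 5870 and 5249 in T2 cells. The lowest T1 sample, replicate 3, was close to the highest T2 sample. Its log2 fold change was 0.41 (SE 0.10).

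The 3 remaining β-tubulins are best known from neurons, and all were minor transcripts here. Tubb2a is broadly expressed at low level outside the brain, where it is abundant. It had 582, 656 and 616 normalized counts in T1 and 275, 403 and 243 in T2 cells, a ratio of 2.01 between the means and a log2 fold change of 1.04 (SE 0.17). The T2 samples were uneven, with replicate 2 well above the others.

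Tubb2b, an isotype of the developing brain, was present in T1 and all but missing from T2 cells. T1 samples had 275, 232 and 394 normalized counts. In T2 cells a single read was counted in replicate 1 and 0 reads in replicates 2 and 3. Over the group, 913 T1 reads stood against 1 T2 read, a depth-corrected ratio of 922 with a 95% counting interval of 165 to 36465. The fitted log2 fold change of 7.87 (SE 0.37) depends on the pseudocount, at 8.68 with 0.5 added and 5.81 with 5 added.

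Tubb3, the class III β-tubulin used as a neuronal marker and also found in carcinomas, had few reads in both populations. Its normalized counts were 32.8, 48.4 and 54.7 in T1 and 3.92, 3.07 and 4.64 in T2 cells. The groups did not overlap, with 139 T1 reads against 12 T2 reads, a ratio of 11.7 (95% counting interval 6.49 to 23.2) and a log2 fold change of 3.23 (SE 0.34). Of 10 neuronal markers, 5 had no read in any sample and none reached the minimum mean. Their summed normalized counts were at most 4.65 in a T1 sample and 9.21 to 11.1 in T2 samples, too few reads to compare the populations.

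Among the α-tubulins, Tuba1b, the general isotype of proliferating cells, was the most abundant. It had 12431, 14266 and 12271 normalized counts in T1 and 9766, 8946 and 11320 in T2 cells. The highest T2 sample, replicate 3, lay below the lowest T1 sample, and the log2 fold change was 0.38 (SE 0.10).

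Tuba1a, the α-tubulin that predominates in young neurons, had 5624, 6070 and 5560 normalized counts in T1 and 3241, 2817 and 3495 in T2 cells. The populations were clearly separated, at 5751 ± 278 against 3184 ± 343 (SD, n = 3 each), with a log2 fold change of 0.86 (SE 0.09).

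Tuba1c, whose coding sequence is 97.9% identical to that of Tuba1b, was the other gene with higher values in T2 cells. It had 5711, 5821 and 4689 normalized counts in T1 and 6612, 6076 and 5850 in T2 cells. The gap between the nearest samples was small, and the log2 fold change was -0.20 (SE 0.09), or -0.098 without T1 replicate 3, the lowest sample.

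Tuba4a, the isotype with no encoded terminal tyrosine, showed the largest difference of the α-tubulins. It had 5124, 4873 and 3824 normalized counts in T1 and 1679, 1901 and 1422 in T2 cells. Every T1 sample lay far above every T2 sample, with a ratio of 2.76 between the means and a log2 fold change of 1.46 (SE 0.13). The overlapping gene Stk16 had a log2 fold change of -0.11 (SE 0.09, adjusted p = 0.314, limma). The part of Stk16 reads in the Tuba4a values was not tested.

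Summed over all 16 α- and β-tubulin genes, tubulin took 0.573, 0.577 and 0.547% of all normalized counts in T1 and 0.504, 0.461 and 0.467% in T2 cells. The sum was 109065 ± 3302 normalized counts in T1 and 91011 ± 4889 in T2 cells (n = 3 each, ± SD), 1.20 times as much in T1. The groups did not overlap. The α-tubulin sum had a ratio of 1.37 and the β-tubulin sum one of 1.15. Without Tubb5, the β-tubulin sum was 18325 to 21485 in T1 and 19015 to 21379 in T2 cells, and the groups overlapped. The ratio of α- to β-tubulin counts also overlapped, at 0.333 to 0.384 in T1 and 0.283 to 0.335 in T2 cells. Calculated per kilobase of exonic length it did not, at 0.408 to 0.460 against 0.339 to 0.406.

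**Figure D2:**
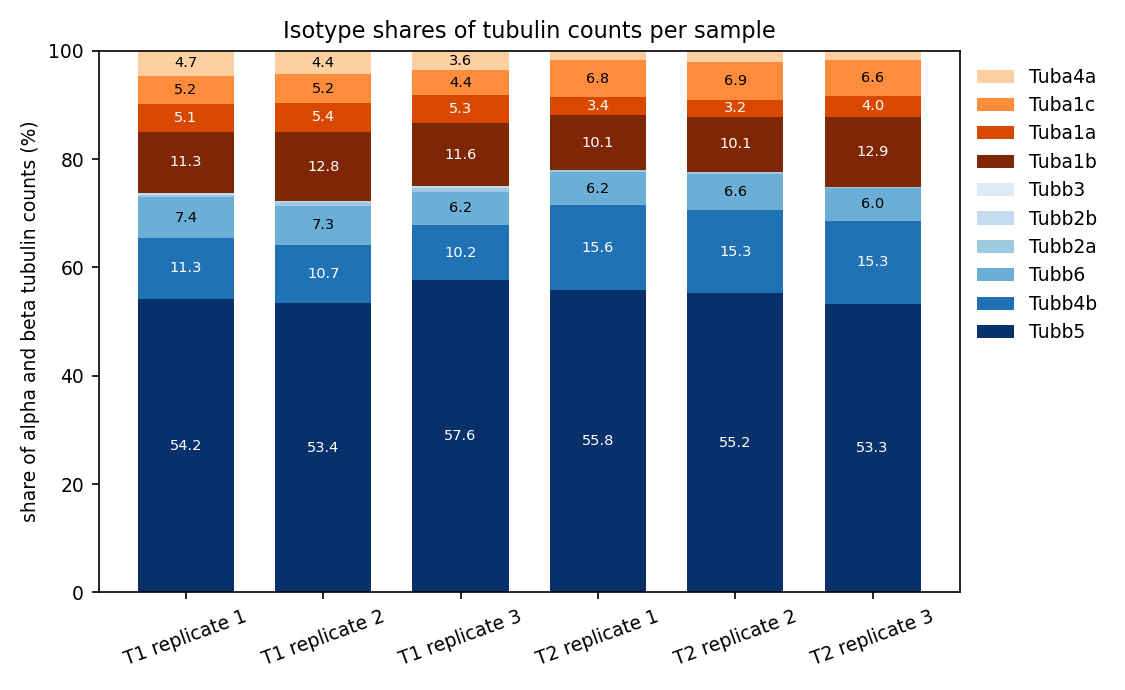
Share of each isotype in all α- and β-tubulin counts (y axis, percent), 1 stacked bar per sample, β-tubulins in blue and α-tubulins in orange, with shares above 3% printed. Tubb5 takes 53.3 to 57.6% of every bar, and the Tubb4b and Tuba1c segments are taller in T2 bars while those of Tuba1a and Tuba4a are shorter.

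The 10 genes held 99.98 to 99.99% of all tubulin counts in every sample, so shares barely depended on the other 6. Tubb5 took 54.2, 53.4 and 57.6% of tubulin counts in T1 and 55.8, 55.2 and 53.3% in T2 cells. Its share therefore overlapped although its count did not. The shares of Tuba1b (11.3 to 12.8% in T1, 10.1 to 12.9% in T2) and Tubb6 (6.20 to 7.44% and 5.96 to 6.64%) overlapped as well. The other 7 isotypes had shares that did not overlap between the populations. By counts rather than shares, 34.2% of all genes compared had every T1 value above every T2 value. A further 33.9% had every T1 value below, so nothing is read from the number of separated isotypes.

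Tubb4b took 11.3, 10.7 and 10.2% of tubulin counts in T1 and 15.6, 15.3 and 15.3% in T2 cells, a difference (T1 minus T2) of -4.70 percentage points. Tuba1c followed it, with 5.19, 5.21 and 4.45% in T1 and 6.84, 6.88 and 6.65% in T2 cells. In the other direction, Tuba4a took 4.66, 4.36 and 3.63% in T1 and 1.74, 2.15 and 1.62% in T2 cells. Tuba1a took 5.11, 5.43 and 5.28% in T1 and 3.35, 3.19 and 3.97% in T2 cells. None of these 4 shares overlapped between the populations. The rare β-tubulins were likewise separated, with mean shares of 0.567% in T1 and 0.339% in T2 for Tubb2a, 0.277% and 0.000338% for Tubb2b, and 0.0416% and 0.00427% for Tubb3.

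Shares were also taken within each family. Tuba1c made up 17.8 to 19.8% of α-tubulin counts in T1 and 26.5 to 31.0% in T2 cells, and Tuba4a 14.5 to 17.7% and 6.44 to 9.63%. Tuba1a held 20.04% ± 0.920 against 15.1% ± 0.784 (SD, n = 3 each), while Tuba1b, at 45.2% ± 1.90 and 47.5% ± 3.28, overlapped. Among the β-tubulins, Tubb4b held 13.6 to 15.3% in T1 and 19.8 to 20.49% in T2 cells, and Tubb5 73.5 to 76.8% and 71.1 to 71.6%. These pairs did not overlap, whereas Tubb6 did, at 8.26 to 10.1% in T1 and 7.96 to 8.55% in T2 cells.

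**Figure D3:**
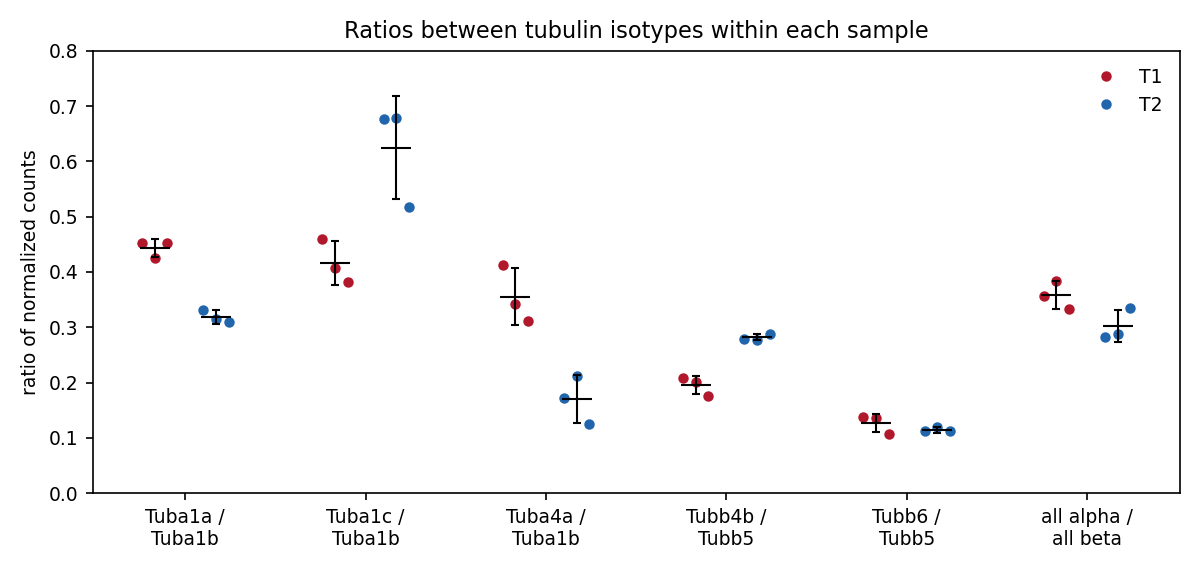
Ratios of normalized counts between isotypes in the same sample (y axis, no unit) for 3 T1 (red) and 3 T2 (blue) samples, with group mean and SD in black. Tuba1a and Tuba4a relative to Tuba1b are higher in T1, Tuba1c relative to Tuba1b and Tubb4b relative to Tubb5 are higher in T2, and Tubb6 relative to Tubb5 and all α relative to all β overlap.

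Ratios inside a sample do not depend on its size factor. Tuba1c stood at 0.459, 0.408 and 0.382 of Tuba1b in T1 and at 0.677, 0.679 and 0.517 in T2 cells. T2 replicate 3, the T2 sample with the most Tuba1b, had the lowest of the T2 ratios. Tuba1a stood at 0.452, 0.425 and 0.453 of Tuba1b in T1 and at 0.332, 0.315 and 0.309 in T2 cells, and Tuba4a at 0.355 ± 0.0517 and 0.170 ± 0.0435 (SD, n = 3 each). Tubb4b stood at 0.208, 0.201 and 0.177 of Tubb5 in T1 and at 0.279, 0.278 and 0.288 in T2 cells. Tubb2b stood at 0.353 to 0.640 of its neighbour Tubb2a in T1 and at no more than 0.00356 in T2 cells.

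Levels of different genes are compared per kilobase of exonic length. In T1 cells Tubb5 was highest with a mean of 22658 normalized counts per kilobase, followed by Tuba1b with 7452 and Tubb4b with 7325, which overlapped. Below them, without overlap between neighbours, came Tubb6 (4329), Tuba1a (3190), Tuba1c (2728), Tuba4a (1622), Tubb2a (384), Tubb2b (138) and Tubb3 (24.2). In T2 cells Tubb5 (18834) was followed by Tubb4b (8788) and Tuba1b (5743), in that order and without overlap. Tubb6 (3250) and Tuba1c (3118) overlapped, and Tuba1a (1766), Tuba4a (587), Tubb2a (191), Tubb3 (2.07) and Tubb2b (0.150) followed. Tuba1c thus stood above Tuba1a in T2 and below it in T1 cells. Scaled to the length of unique windows alone, the order changed. Tuba1b rather than Tubb5 then held the largest mean share, at 33.0% against 26.6% in T1 and 30.8% against 26.8% in T2 cells. In T2 cells Tuba1b thereby stood above Tubb4b (18.5%). Tubb6 (5.16% in T1, 4.72% in T2) fell below Tuba1a (11.1% and 7.48%) and Tuba1c (6.94% and 9.65%) in both populations. The order, first place included, therefore depends on how shared reads were counted.

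Of the 6 other α- and β-tubulin genes, Tuba3a, Tuba8 and Tubb1 had no read, and Tuba3b and Tubal3 had 1 read each in a T2 sample. Tubb4a, an isotype of oligodendrocytes and neurons, had 9.52, 11.2 and 9.76 normalized counts in T1 and 7.83, 9.21 and 13.0 in T2 cells, with overlapping groups and a log2 fold change of 0.04 (SE 0.36, adjusted p = 0.928, limma). Tubb2a-ps2 was picked for mention with its values known. This processed pseudogene on chromosome 12 (chr12:11881325-11882663) is 97.8% identical to the Tubb2b transcript and 95.4% to that of Tubb2a. It had 28.6, 22.3 and 17.6 normalized counts in T1 cells and 0 reads in T2 cells, at least 23.2-fold higher in T1 (against a floor of 3 reads over the group). Of its 100-base windows, 91.5% were unique, and whether its reads came from Tubb2b was not tested.

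Promoters are shown for 3 members, Tubb2a and Tuba4a with higher values in T1 and Tubb4b with higher values in T2 cells. Of the 10 genes, 8 matched an entry in the RefSeq table (GRCm38.p6), and Tubb2b and Tubb6 did not. Each line runs 5′ to 3′ on the gene's strand from 250 bases before to 50 after the start. Capitals mark matches on either strand to CCAAT (the NF-Y box), GGGCGG (the GC box), TATAAA (the TATA box), GGAATG (the TEAD motif) or TGANTCA (the AP-1 motif).
Tubb2a, chr13:34077959-34078258 (minus strand): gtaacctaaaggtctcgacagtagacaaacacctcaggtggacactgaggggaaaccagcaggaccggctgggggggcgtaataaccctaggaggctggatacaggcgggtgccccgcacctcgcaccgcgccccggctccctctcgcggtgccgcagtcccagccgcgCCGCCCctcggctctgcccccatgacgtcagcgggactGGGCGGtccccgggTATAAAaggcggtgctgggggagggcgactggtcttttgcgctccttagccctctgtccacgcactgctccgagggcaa
Tuba4a, chr1:75219245-75219544 (minus strand): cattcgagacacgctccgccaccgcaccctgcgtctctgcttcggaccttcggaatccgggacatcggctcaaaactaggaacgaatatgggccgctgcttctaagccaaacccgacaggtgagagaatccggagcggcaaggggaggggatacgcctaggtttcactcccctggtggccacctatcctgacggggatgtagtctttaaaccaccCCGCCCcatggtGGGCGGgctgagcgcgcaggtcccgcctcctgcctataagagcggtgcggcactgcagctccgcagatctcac
Tubb4b, chr2:25224653-25224952 (minus strand): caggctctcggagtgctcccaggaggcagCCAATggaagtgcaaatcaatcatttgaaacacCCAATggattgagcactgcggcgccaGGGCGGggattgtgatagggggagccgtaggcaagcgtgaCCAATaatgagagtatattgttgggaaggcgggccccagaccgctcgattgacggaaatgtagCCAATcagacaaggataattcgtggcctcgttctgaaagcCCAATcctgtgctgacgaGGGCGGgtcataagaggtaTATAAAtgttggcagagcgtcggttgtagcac
Tubb4b held 5 CCAAT, 2 GGGCGG and 1 TATAAA match, Tubb2a 2 GGGCGG and 1 TATAAA, and Tuba4a 2 GGGCGG. Of 32851 promoters of that length, 37.4% held CCAAT, 35.7% GGGCGG, 13.6% TATAAA, 14.7% GGAATG and 7.81% TGANTCA. Among the other matched genes, Tubb5 held 2 CCAAT, 2 GGGCGG and 1 GGAATG, Tubb3 held 1 CCAAT and 2 GGGCGG, Tuba1a held 1 of each of these, Tuba1b held 2 GGGCGG and Tuba1c 1 CCAAT. A match is a description of the letters only.

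Beyond the isotypes, 117 genes act on tubulin or microtubules in the lists used, of which 96 passed the minimum mean. By limma at an adjusted p-value under 0.01, 26 were higher and 19 lower in T1 cells, and 6 and 4 also passed the fold threshold. Their median log2 fold change was 0.05. As shares of the 96 these were 27.1% and 19.8% at the adjusted threshold and 6.25% and 4.17% past both thresholds, near the 25.1%, 24.4%, 4.17% and 4.2% of all genes compared. The counts given below for single lists stand against the same shares of all genes, and no list was tested as a set.

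**Figure D4:**
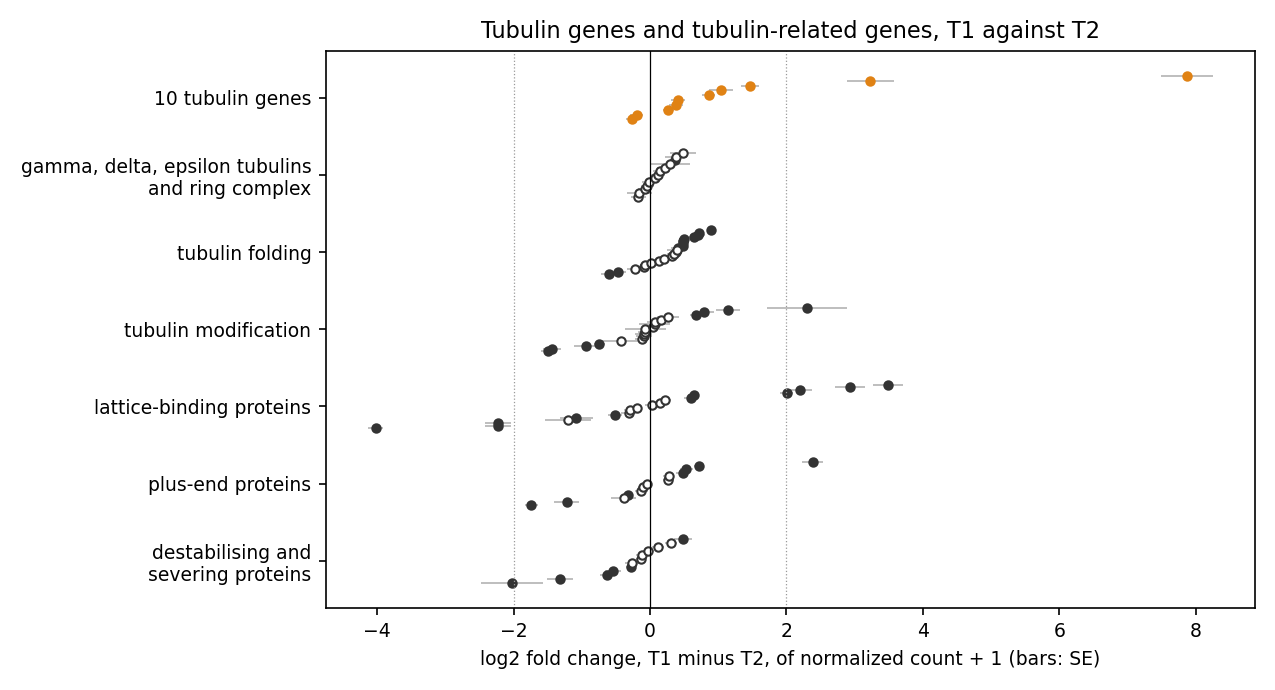
Log2 fold change, T1 minus T2, of normalized count + 1 (x axis, bars are SE) for the 10 tubulin genes (orange, no test) and 6 lists of related genes. Filled points passed an adjusted p-value under 0.01 (limma), open points did not, and dotted lines mark the fold threshold of 2. The folding list lies mostly to the right of 0, and the lattice-binding list spreads from -4.02 to 3.49.

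New α- and β-tubulin chains pass from prefoldin to the chaperonin CCT and then to the cofactors Tbca to Tbce, which assemble the dimer. The list compared held 21 genes, these together with Arl2 and Ttc5. Of the 21, 10 were higher and 2, Tbcc and Ttc5, lower in T1 cells, and the median log2 fold change was 0.38. The fold threshold was passed by 0 of them with limma, edgeR, DESeq2 or an unadjusted p-value under 0.05. Summed counts of the list were 146516 to 155533 in T1 and 103087 to 108549 in T2 cells. The CCT subunits Cct2 (20460, 21050 and 20857 in T1, 11266, 10526 and 11661 in T2), Cct5 and Tcp1 led, with log2 fold changes of 0.90 (SE 0.07), 0.71 (SE 0.07) and 0.65 (SE 0.08) and adjusted p-values of 2.1e-06, 8.0e-06 and 4.0e-05. Of the 8 CCT genes, Cct3 was the exception at the threshold, with 0.20 (adjusted p = 0.033). The cofactor Tbcd rose with them in T1 cells (0.70, SE 0.11, adjusted p = 0.000261), and Tbcc was lower (-0.61, SE 0.11, adjusted p = 0.000749). Cct3 and Tbcc were picked for mention with their values known.

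Ttc5, the factor that reads the nascent tubulin chain in mRNA autoregulation, was lower in T1 cells. It had 505, 468 and 617 normalized counts in T1 and 734, 707 and 743 in T2 cells, without overlap and with a log2 fold change of -0.47 (SE 0.12, adjusted p = 0.0057, limma). The call was lost when T1 replicate 1 or 2 or any T2 replicate was left out (adjusted p 0.014 to 0.029) or the variance trend was dropped (0.014), and held without T1 replicate 3.

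The γ-tubulins and the γ-tubulin ring complex nucleate microtubules. Of 13 such genes, δ- and ε-tubulin included, 1 was higher in T1 cells, the ring complex subunit Tubgcp3 (0.37, SE 0.07, adjusted p = 0.0013, limma). It was also the gene of the list with the highest mean, 2461 normalized counts in T1 and 1903 in T2 cells. None was lower by limma, edgeR, DESeq2 or an unadjusted p-value under 0.05. Tubg1 (mean 1085 in T1 and 932 in T2), Tubg2 (41.4 and 34.9) and Tube1 (138 and 152) overlapped between the populations. Tubd1 (113 and 79.9) did not overlap but missed the threshold (adjusted p = 0.052).

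Enzymes that modify tubulin split evenly, 4 higher and 4 lower of 19 compared (median log2 fold change -0.07). Ttll7, a polyglutamylase that prefers β-tubulin, was lower in T1 cells, with 517, 621 and 544 normalized counts against 1446, 1612 and 1687 (log2 fold change -1.50, SE 0.10, adjusted p = 9.3e-07). The tyrosine carboxypeptidase gene Vash2 was lower too (-1.44, SE 0.14, adjusted p = 8.1e-06). Its paralog Vash1 had 10.6, 13.0 and 42.9 normalized counts in T1 and 5.88, 2.05 and 1.86 in T2 cells. It was the gene of the list past both thresholds (2.30, SE 0.58, adjusted p = 0.006), a call lost without T1 replicate 3 (adjusted p = 0.018), T2 replicate 2 (0.021), T2 replicate 3 (0.027) or a variance trend (0.014). With a pseudocount of 5 its log2 fold change was 1.56, under the fold threshold. Ttll1, a polyglutamylase that prefers α-tubulin, was higher in T1 cells (1.14, SE 0.17, adjusted p = 0.000221). The α-tubulin acetyltransferase Atat1 (-0.94, SE 0.17) and the deacetylase Hdac6 (-0.74, SE 0.08) were both lower in T1 cells (adjusted p = 0.000752 and 3.0e-05) and were picked for mention with their values known. Ttll4, the gene of the list with the highest mean, overlapped between the populations (0.15, adjusted p = 0.247).

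The lattice-binding microtubule-associated proteins held the widest changes, in both directions. Of 18 compared, 6 were higher and 5 lower in T1 cells, 4 and 3 of them past the fold threshold. Map1a, a MAP of mature neurons, had 94.2, 91.1 and 94.7 normalized counts in T1 and 1549, 1586 and 1466 in T2 cells (-4.02, SE 0.11, adjusted p = 2.0e-09). The doublecortin-like kinase gene Dclk2 was lower as well (-2.23, SE 0.19, adjusted p = 4.4e-06). In contrast, the microtubule-binding protein gene Mtus1 had 258, 226 and 337 normalized counts in T1 and 18.6, 25.6 and 26.0 in T2 cells (3.49, SE 0.22, adjusted p = 5.3e-07). Camsap3, which anchors microtubule minus ends in epithelial cells, was higher in T1 cells (2.93, SE 0.22, adjusted p = 1.8e-06). The spindle factor Tpx2 had the highest mean of the list (6249 in T1 and 7106 in T2) and missed the threshold (-0.18, adjusted p = 0.041).

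Plus-end proteins bind growing microtubule tips, and of 13 compared 4 were higher and 3 lower in T1 cells. Slain1 was past both thresholds, with 379, 356 and 404 normalized counts in T1 and 79.3, 74.7 and 62.2 in T2 cells (2.39, SE 0.15, adjusted p = 5.7e-07). Clip2 (-1.74, SE 0.09, adjusted p = 1.7e-07) and Mapre3 (-1.22, SE 0.18, adjusted p = 0.000209) were lower and Clip1 was higher (0.72, SE 0.07, adjusted p = 1.4e-05). Mapre1, which encodes the core tip tracker EB1 and had the highest mean of the list, was lower in T1 cells (-0.32, SE 0.07, adjusted p = 0.0025), a call lost without T2 replicate 1 (0.012) or T2 replicate 3 (0.011) or without a variance trend (0.013).

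Of 12 genes that destabilise or sever microtubules, 1 was higher and 5 were lower in T1 cells (median log2 fold change -0.20). The lower genes included the katanin-like Katnal2 and Katnal1 and the dimer-sequestering Stmn1. Katnal1 had 162, 198 and 283 normalized counts in T1 and 569, 480 and 524 in T2 cells (-1.32, SE 0.19, adjusted p = 0.00015, limma). Stmn1 changed less (-0.54, SE 0.11, adjusted p = 0.0019), and its call was lost without T1 replicate 2 (0.010) or T2 replicate 1 (0.013). Katnal2 passed both thresholds by limma (-2.02, SE 0.45, adjusted p = 0.0029) but not by edgeR (-1.84) or DESeq2 (-1.85), where the fold was smaller, and the call was lost without T2 replicate 1 (0.016), T2 replicate 3 (0.015) or a variance trend (0.011). Kif2c, the depolymerase with the highest mean of the list, missed the threshold (-0.13, adjusted p = 0.146).

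Most markers of other cells had few or no reads. Of 8 fibroblast markers, 2 reached the minimum mean and 4 had no read in any sample. Pdgfra, the antigen sorted on for fibroblasts, was also measured in the paper as a mesenchymal marker of T1 and T2 cells. The list's summed counts, 225 to 241 in T1 and 997 to 1295 in T2 cells, held mostly Pdgfra (mean 199 in T1 and 1099 in T2). Col3a1, Lum, Pdgfrb and Thy1 were at 0. Against that direction, Col1a1 (22.4 and 0.326) was higher in T1 past both thresholds (4.17, SE 0.51, adjusted p = 4.9e-05, limma), and Col1a2 had 4.23 to 11.7 normalized counts in T1 and 0 reads in T2 cells. Of 8 leukocyte markers, 2 reached the minimum mean and 3 had no read, with summed counts of 385 to 463 in T1 and 166 to 203 in T2 cells. The higher T1 sum came from Cd14 (mean 340 in T1 and 83.1 in T2), whereas Cd68 (72.9 and 94.6) and Ptprc (0 and 4.61) had lower means in T1. These marker genes were picked for mention with their values known. None of 6 endothelial markers reached it, with at most 15.9 summed counts in a sample. The part of these markers in the tubulin values was not tested.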

How the data were processed

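RNA sequencing values of 3 T1 and 3 T2 samples were used. The authors removed adapters with Trimmomatic, mapped 150-base paired reads of poly(A) libraries on mm10 using TopHat2, obtained gene counts from HTSeq and scaled them by the median-of-ratios factors of DESeq2. The deposited signal is that normalized count. Versions, annotation, strand setting and the treatment of multiply mapped reads are not given in the sources used here. Of the deposited values, 100% were whole reads (within 0.1 read) after multiplication by the size factor. The 6 columns of T1 and T2 values were used, and whether the deposit holds further columns was not checked. In 27 rows a date stood in place of the gene name. These rows were not removed, and those reaching the minimum mean are among the genes compared.

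The members and gene lists were chosen with earlier results of these data known. Genes averaging 10 or more normalized counts were compared by limma 3.58.1 (run in R 4.3.3) after adding 1 and taking log2, using a variance trend and Benjamini-Hochberg adjustment, tested on simulated data. edgeR 4.0.16 and DESeq2 1.42.0 were run on recovered reads as alternatives. Named related genes were the up to 4 largest changes of each list (past both thresholds first), its gene with the highest mean, all tubulins, and Ttc5. One such gene and some coding sequences are not reported here. Shares were taken over all α- and β-tubulin genes. Lengths, positions, coding ends and windows came from GENCODE vM21 (GRCm38). Counting intervals are exact 95% intervals and, like the floor of 3 reads, cover counting error only. With 3 against 3 samples the smallest exact permutation p-value is 0.1. Plots were made in Python 3.11.15 by matplotlib 3.10.9.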

Additional observations from a re-analysis of the deposited data

How the results depend on the processing

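Counts of genes past the thresholds, over all genes and among tubulin-related genes, stayed within 1.5 times their main values under every alternative run: pseudocounts of 0.5 and 5, no low-count filter or a minimum mean of 50, quantile normalization, TMM factors, no variance trend, edgeR, DESeq2, the replicate number as a block, and each replicate left out. Leaving out a replicate gave 466 to 495 genes higher and 463 to 496 lower past both thresholds, and 2405 to 2896 higher and 2251 to 2901 lower at the adjusted threshold. Among related genes it gave 4 to 6 and 3 to 4 past both, and 23 to 25 and 14 to 18 at the adjusted threshold. No log2 fold change of a member changed sign, but 8 of the members' values moved by more than the spread between replicates: Tubb2b to 8.68 and 5.81 (pseudocounts of 0.5 and 5), 9.39 (edgeR) and 9.75 (DESeq2), Tubb3 to 2.48 (pseudocount 5) and 3.54 (DESeq2), and, with quantile normalization, Tubb4b to -0.37 and Tubb5 to 0.43. Without T1 replicate 3 that of Tuba1c was -0.098. Without a variance trend, Ttc5, Vash1, Mapre1 and Katnal2 missed the adjusted threshold, and with a pseudocount of 5 Vash1 (1.56) and Katnal2 (-1.70) fell short of the fold threshold. Calls at the adjusted threshold did depend on the setting for Tubb6 (lost without a variance trend and without any replicate but T1 replicate 3), Tuba1b (lost with quantile normalization, without a variance trend and without T1 replicate 1 or 2 or T2 replicate 1 or 2), Tubb4b (reached with quantile normalization and DESeq2) and Tubb5 (reached with quantile normalization, edgeR and DESeq2 and without T2 replicate 1). With a minimum mean of 50 normalized counts Tubb3 was not among the genes compared, so it had no call. Because the members were chosen on this contrast, nothing is read from their calls. The cause of the differences between settings was not tested.

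Share differences (T1 minus T2, in percentage points) kept their sign for the 7 isotypes whose groups did not overlap. Counted per kilobase they became 0.316 for Tubb2a, -6.09 for Tubb4b, 2.22 for Tuba1a and 1.85 for Tuba4a. Per kilobase of unique windows they became 0.0246 for Tubb3, -5.80 for Tubb4b, 3.66 for Tuba1a and -2.71 for Tuba1c. Without 1 replicate they ranged from 0.196 to 0.286 for Tubb2a, 0.228 to 0.312 for Tubb2b, 0.0323 to 0.0433 for Tubb3, -4.97 to -4.42 for Tubb4b, -0.976 to 1.13 for Tubb5, 0.447 to 1.07 for Tubb6, 1.61 to 2.002 for Tuba1a, 0.409 to 1.79 for Tuba1b, -1.97 to -1.59 for Tuba1c and 2.16 to 2.67 for Tuba4a.

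T1 and T2 share replicate numbers, and whether same-numbered samples were handled together is not given in the sources used here. Deviations of same-numbered samples correlated at 0.0575, 0.172 and 0.104 over genes. Each T1 replicate correlated best with the T2 replicate of its own number, whereas T2 replicate 1 correlated best with T1 replicate 3 (0.0719). The lowest correlation was -0.152, between T1 replicate 3 and T2 replicate 2. With the replicate block, 967 genes passed both thresholds in place of 964, and it changed no call of a member or named gene. Depth limits Tubb2b and Tubb3 in T2 cells, with 1 and 12 reads over the group.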
